A study of Homo sapiens with 24 samples.

Results

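The genes examined were MYC, which encodes a transcription factor that drives cell growth, and 51 genes of the nucleolus, the compartment where ribosomal RNA is transcribed, cleaved, modified and packed into ribosomal subunits. They were taken as a list of 52 symbols by function. No measured value is part of the choice of symbols, although the list was drawn up with earlier results of these data known. The symbols were matched to RefSeq accessions through the symbol column that accompanied the count table, and for each gene the accession with the highest mean count was used. This found 44 of the 52 symbols among the 64519 accessions in the table. The 8 symbols not found were MYC, NOLC1, POLR1B, NOP2, PES1, UTP15, IMP4 and WDR75.

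RNA-seq was available for 24 libraries of Nalm6, an established human B-cell acute lymphoblastic leukemia (B-ALL) line. Cells expressed a short hairpin RNA (shRNA) of non-specific sequence (shNS) or one against G9a, GLP or HP1γ, and each of these 4 lines received 100 nM dexamethasone (dex), a synthetic glucocorticoid, or its ethanol vehicle for 8 h. There were 3 biological replicates in each of the 8 groups, which by the labels were prepared on different days. G9a and GLP are lysine methyltransferases and HP1γ is a methyl-lysine reader, and the study asked whether HP1γ is needed where G9a and GLP act as coactivators of the glucocorticoid receptor (GR). All groups, shNS included, are lentivirally transduced pools of 1 cell line, so that no second line or patient sample stands behind any value. In bulk RNA, fewer cells with a transcript and less of it per cell cannot be told apart.

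Ribosome production starts when RNA polymerase I transcribes the long precursor of ribosomal RNA. Small nucleolar ribonucleoproteins (snoRNPs) then guide its methylation (box C/D) and pseudouridylation (box H/ACA), the small subunit (SSU) processome assembles on its 5′ part, and other factors build the 60S subunit. MYC binds the E-box CACGTG and is a well known activator of the genes for these factors. In lymphoid leukemia cells, glucocorticoids are known to lower MYC before cells stop dividing.

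Library totals ran from 9289533 to 14387770 counts. Dex acted in these cells, since FKBP5, a standard GR target, was higher by 1.33 on the log2 scale in the mean of the 4 lines (SE 0.08, adjusted p = 3.15e-12, edgeR). The paper reports, from immunoblot and quantitative PCR, that each shRNA efficiently lowered the protein and mRNA of its target. In the counts used here, the depleted mRNAs could be followed only at low counts. In dex, EHMT1 (GLP) differed by -0.37 in shGLP (adjusted p = 0.41, edgeR). The 2 tested accessions of CBX3 (HP1γ) differed by -0.61 and -0.15 in shHP1γ dex (adjusted p = 0.142 and 0.842, edgeR). In ethanol, EHMT1 differed by -0.65 in shGLP (adjusted p = 0.0923, edgeR). The same CBX3 accessions differed by -0.5 and -0.3 in shHP1γ ethanol (adjusted p = 0.277 and 0.644, edgeR). EHMT2 (G9a) had no accession among those tested, so the depletion of its mRNA could not be followed here. Of the listed B-lineage precursor markers, RAG1, with 12333 to 32723 counts per library, and VPREB3, with 1224 to 4348, were present. CD79A, IGLL1 and MME were present too. In contrast, CD79B, CD22 and DNTT, each listed under several accessions, had 0 counts in every library, and PAX5, EBF1 and VPREB1 no more than 7. The B-lineage markers summed to 1500 to 2140 CPM in shNS and shHP1γ libraries and to 2270 to 3100 CPM in shG9a and shGLP libraries. Summed T-cell, erythroid and epithelial markers did not exceed 0.719 normalized CPM (counts scaled to library size) in any library. The 4 myeloid markers summed to 20.4 to 34 CPM in shGLP libraries, almost all of it LYZ, and to 2.75 to 11.7 CPM elsewhere. One library, shG9a dex replicate 2, stood apart: it had the highest total and the lowest median correlation with its own replicates (r = 0.9857, against up to 0.9942). Results that rest on it are given with and without it.

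The level of MYC itself could not be read from these counts. Its best accession held 0 to 11 counts per library, with a mean of 3.46, and its other accession was at 0 in every library. No change of MYC is therefore reported for any comparison. Accessions that share their gene with others were mostly empty: 74.1% of 40802 such NM accessions were at 0 in every library, against 21.4% of 8707 that are the only one of their gene. The same split ran through the 44 members found. For 26 members the accession was the only one of the gene, with mean counts from 811.62 (NOC4L) to 49500.83 (NCL). The other 18 members had mean counts from 7.25 (GNL3) to 245.33 (NOP14), so that their values carry a larger error and represent only part of the gene's reads. All 44 members exceeded 1 CPM in 2 or more libraries, as the test required. The symbol column lists accessions that passed a filter of the authors, so this was built into how members were found.

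In the mean of the 4 lines, the nucleolar genes were lower after dex. Of 44 members, 30 fell and 0 rose with the limit on the adjusted p set at 0.05 (quasi-likelihood test of edgeR, Benjamini-Hochberg adjustment over 10167 accessions), with a median log2 fold change of -0.17, a decrease of 10.8%. Over all tested accessions, 13.4% fell and 10.3% rose, and the median was -0.01. Well counted accessions are called more often: among the 2528 with at least the lowest mean count of the 26 single-accession members, 32.1% fell, with a median of -0.04, whereas 24 of these 26 members fell, with a median of -0.17. The count was 15 without the replicate block and 10 without the libraries of replicate 3, with 0 higher in both, and it stayed at 30 without shG9a dex replicate 2. The changes were small. The strongest called change was that of BYSL, and no called member with a sole accession other than BYSL, RRP9, WDR43 and NCL fell by more than 0.23 on the log2 scale. The members' summed share of all counts, of which NCL made 33.6% to 38.8%, was lower in dex than in ethanol in 12 of 12 pairs of the same line and replicate, at 0.962% to 1.29% in dex and 1.12% to 1.48% in ethanol.

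BYSL, which encodes bystin, a factor for late maturation of the 40S subunit, showed the largest fall. It lies on GRCh37 chromosome 6 from 41889237 to 41900784, and none of its exon bases is shared with another annotated gene. In shNS cells its level was 168, 182 and 183 CPM in ethanol and 110, 124 and 126 CPM in dex. In shG9a cells it was 186, 184 and 205 CPM in ethanol and 133, 141 and 155 CPM in dex. The ethanol and dex values did not overlap in either line. With shGLP the values were 182, 190 and 217 CPM in ethanol and 135, 153 and 151 CPM in dex, and with shHP1γ they were 182, 209 and 201 CPM against 131, 145 and 144 CPM. In all 4 lines the lowest ethanol library was thus above the highest dex library. The log2 fold change was -0.48 in the mean of the lines (SE 0.03, adjusted p = 2.19e-12, edgeR), and by line it was -0.57 in shNS, -0.43 in shG9a, -0.42 in shGLP and -0.49 in shHP1γ, each past the limit.

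**Figure D1:**
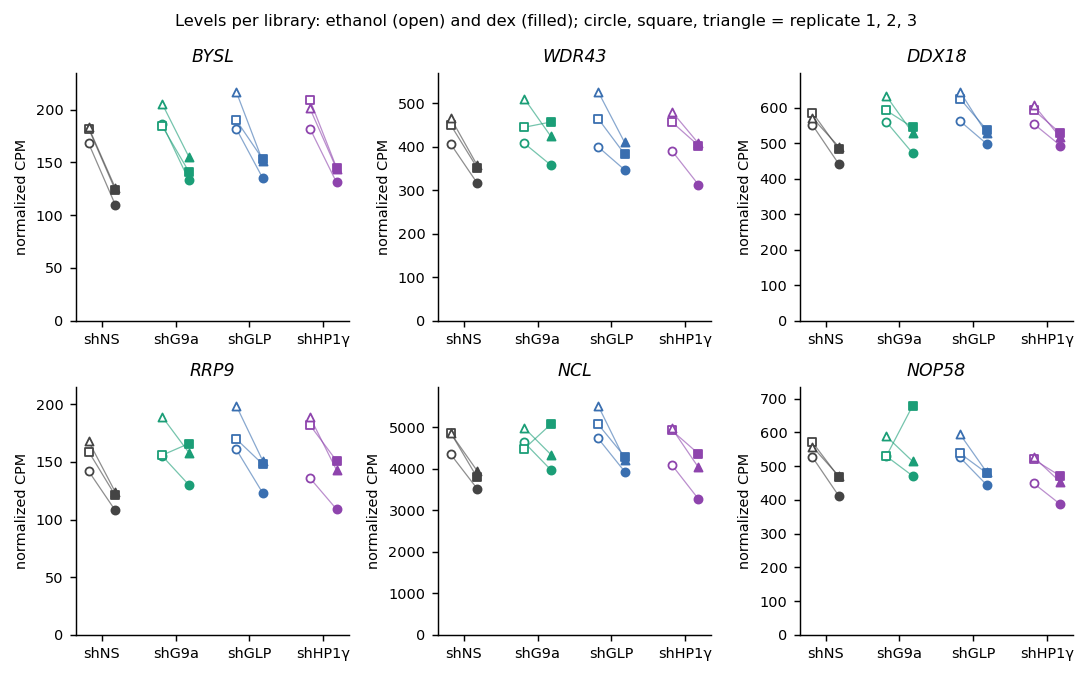
Normalized CPM (y axis, from 0) of 6 nucleolar genes in each of the 24 libraries, by line (x axis), with ethanol as open and dex as filled symbols, the replicate given by the symbol's shape and a thin line joining libraries of the same line and replicate. BYSL and DDX18 fell in 12 of 12 pairs, whereas the shG9a dex library of replicate 2 lies high for NCL (5070 CPM) and NOP58 (680 CPM).

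DDX18, an RNA helicase of 60S assembly, was the other member that separated in every line. Its dex libraries held 441, 483 and 490 CPM in shNS against 552, 587 and 572 CPM in ethanol, a log2 fold change of -0.28 (SE 0.04, adjusted p = 1.49e-04, edgeR). The change was -0.21 in shG9a, -0.23 in shGLP and -0.19 in shHP1γ, and -0.23 in the mean of the lines (SE 0.02, adjusted p = 4.95e-08, edgeR). BYSL and DDX18 were the only members whose groups did not overlap, with dex below, in each of the 4 lines. The share of all tested accessions that did so in each of the 4 lines was not computed. By line, dex was wholly below ethanol for 20 of 44 members in shNS, 4 in shG9a, 13 in shGLP and 2 in shHP1γ. Over all tested accessions the corresponding shares were 15.6%, 8.26%, 9.97% and 5.27%.

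Members of the SSU processome, which folds and cuts the 5′ part of the precursor, fell in most cases. In its UTP-A subcomplex both measured members fell, WDR43 by 0.26 on the log2 scale (SE 0.03, adjusted p = 2.82e-07, edgeR) and HEATR1 by 0.16. WDR43 stood at 407, 451 and 467 CPM in shNS ethanol and at 317, 352 and 358 CPM in shNS dex, without overlap. In the UTP-B subcomplex all 4 members fell, with log2 fold changes of -0.23 for WDR3 (adjusted p = 7.83e-06, edgeR), -0.20 for UTP18 (adjusted p = 6.32e-06, edgeR), -0.16 for TBL3 and -0.14 for PWP2. UTP18 was at 237, 249 and 256 CPM in shNS ethanol and at 201, 214 and 211 CPM in shNS dex, and it was lower in 12 of 12 pairs. Of 8 further processome members, 6 fell (RCL1 -0.40, DDX10 -0.18, NOC4L -0.17, UTP20 -0.14, UTP3 -0.11 and IMP3 -0.11), and UTP14A (-0.12) and NOP14 (-0.11) did not pass the limit. RCL1 rests on a mean of 21.88 counts. Where the annotation shows overlapping exons and strand handling is not given, reads could belong to the neighbour: this holds for 58.1% of the exon bases of IMP3, 46.7% of TBL3, 23.1% of HEATR1, 20.7% of NOP14 and 17.1% of WDR3. Among the members below it holds for 28.0% of NHP2, 26.9% of TSR1, 20.4% of NOB1, 18.6% of NOP16, 18.4% of NIP7 and 17.8% of WDR74, and for no more than 11.3% of any other member found.

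The box C/D and box H/ACA snoRNP proteins were divided. Of the C/D proteins, RRP9, which binds the U3 snoRNA, fell by 0.30 on the log2 scale (SE 0.04, adjusted p = 9.1e-07, edgeR), the core protein NOP58 by 0.18 and the methyltransferase FBL by 0.13, and the low-count NOP56 had -0.11 without passing the limit. RRP9 held 142, 159 and 168 CPM in shNS ethanol and 108, 121 and 124 CPM in shNS dex, again without overlap. Of the 4 H/ACA proteins only GAR1 fell (-0.33, adjusted p = 0.0131, edgeR). The pseudouridine synthase DKC1 (0.02), NHP2 (-0.28) and NOP10 (-0.08) did not pass the limit. NOP10 is the only one of these 4 with a sole accession, with a mean of 2157.54 counts. In the nucleolar transcription group, nucleolin (NCL) fell by 0.24 (SE 0.03, adjusted p = 9.4e-06, edgeR) and the MYB-binding protein MYBBP1A by 0.25 (adjusted p = 0.0124, edgeR). POLR1A, the largest subunit of RNA polymerase I, had -0.08 (SE 0.04, adjusted p = 0.126, edgeR). In shNS cells NCL was at 4350, 4870 and 4860 CPM in ethanol and at 3520, 3790 and 3950 CPM in dex. The acetyltransferase NAT10 (-0.28), the helicase DDX21 (-0.34), and, of the late 40S factors, TSR1 (-0.20, adjusted p = 8.72e-06, edgeR) and RRP12 (-0.34) fell too. PNO1 (-0.19), NOB1 (-0.05) and LYAR (-0.22), all with several accessions, did not pass the limit.

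Of 11 factors of 60S assembly, 7 fell, and these were the 7 with a sole accession: DDX18, RRS1 (-0.20, adjusted p = 2.8e-04, edgeR), WDR12 (-0.19), NOC2L (-0.16), BOP1 (-0.16), NOC3L (-0.13) and RRP1B (-0.13). The other 4 had several accessions and few counts, and gave -0.09 (NIP7), -0.04 (GNL3), 0.09 (NOP16) and 0.26 (WDR74), none past the limit. Over the whole list, 6 of the 18 members with several accessions were called, against 24 of 26 with a sole one. The median standard error was 0.12 in the former and 0.03 in the latter. The medians, -0.16 and -0.17, were close. POLR1A and NOP10 were the members with a sole accession that were not called. In all, 33 of 44 members had a value below 0 in each of the 4 lines, and 24 of the 26 with a sole accession were lower in at least 11 of 12 pairs. The shares of all tested accessions for these 2 counts were not computed. In the mean of the lines, 1653 of the 2528 well counted accessions had a value below 0, against all 26 members with a sole accession.

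**Figure D2:**
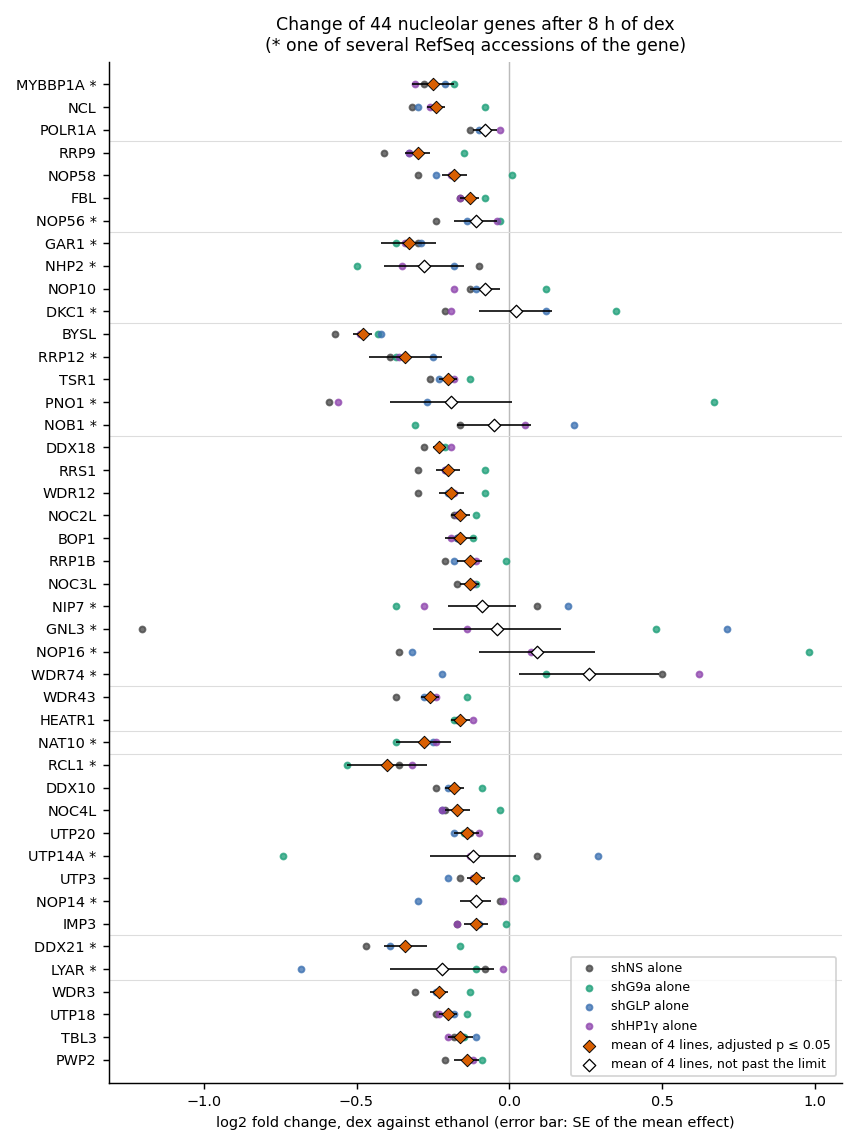
log2 fold change, dex against ethanol (x axis), for the 44 nucleolar genes (y axis, grouped by role), with diamonds and SE bars for the mean of the 4 lines, filled where the adjusted p was at most 0.05, and circles for each line alone; an asterisk marks genes with several accessions. All 26 members with a sole accession lie below 0 in the mean of the lines, from -0.48 to -0.08, and the asterisked members spread most between lines.

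The E-box, a sequence feature that the choice of members did not use, was more frequent in the promoters of these genes than in those of all tested genes. Windows from 250 bases before to 50 after the annotated start were taken from RefSeq (GRCh38.p14) and searched for the E-box CACGTG, which reads the same on both strands. Of the 44 members, 38 had a window. An E-box was present in 19 of these 38, against 830 of 6969 genes with a tested accession (11.9%) and 2396 of 27305 genes in the promoter table (8.77%). In 17 of the 19 it began within 40 bases of the start. The share was 54.2% in the 24 members that fell in the mean of the 4 lines and 42.9% in the 14 that did not pass the limit. The GR element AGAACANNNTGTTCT, searched on both strands, was in 0 of the 38 windows and in 1 of all 27305. A match is a run of letters, not a site of binding, and base composition was not matched between the sets. Of the windows, 5 are shown, chosen after the values were seen. Members were taken in order of adjusted p in the mean of the lines. Only those with an E-box wholly inside the stretch shown were kept, so the 5 do not stand for all windows. In these windows the place of the E-box (capitals) relative to the start can be read. Each runs from 120 bases before the start to 30 bases from it on the strand of the gene.
WDR43 (chr2:28894547-28894696, + strand): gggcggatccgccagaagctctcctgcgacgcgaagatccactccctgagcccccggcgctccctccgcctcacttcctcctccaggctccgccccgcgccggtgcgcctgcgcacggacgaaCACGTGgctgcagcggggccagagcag
RRP9 (chr3:51941875-51942024, - strand): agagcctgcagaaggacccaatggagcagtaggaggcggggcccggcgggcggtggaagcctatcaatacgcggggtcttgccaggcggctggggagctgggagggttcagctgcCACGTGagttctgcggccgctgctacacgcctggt
FBL (chr19:39846350-39846499, - strand): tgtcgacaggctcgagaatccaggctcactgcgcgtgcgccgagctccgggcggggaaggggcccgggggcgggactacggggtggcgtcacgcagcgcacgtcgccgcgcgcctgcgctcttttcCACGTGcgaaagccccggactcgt
UTP18 (chr17:51260426-51260575, + strand): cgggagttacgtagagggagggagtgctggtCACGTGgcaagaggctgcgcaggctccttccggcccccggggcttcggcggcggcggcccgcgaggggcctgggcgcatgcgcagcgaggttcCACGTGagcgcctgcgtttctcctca
DDX21 (chr10:68956527-68956676, + strand): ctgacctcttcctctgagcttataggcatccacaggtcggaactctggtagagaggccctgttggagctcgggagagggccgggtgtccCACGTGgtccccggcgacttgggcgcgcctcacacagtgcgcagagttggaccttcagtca
Counted with the start as 1, the E-box began at position 4 in WDR43, -5 in RRP9, 7 in FBL and -31 in DDX21, and UTP18 had one at -89 and another at 5. BYSL had a single E-box, at position 29. NCL, WDR3, TSR1 and WDR12, which also fell in the mean of the lines, had none in the window.

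In shNS cells alone, 13 of 44 members fell after dex and 0 rose, where 5.46% of all tested accessions fell, and the members' median was -0.23. Among the members with a sole accession 12 of 26 fell, beside 15.2% of the well counted accessions. Without the replicate block 2 fell, and without the libraries of replicate 3, 3 fell. The 13 were BYSL, WDR43, DDX18, RRP9, WDR3, NCL, TSR1, UTP18, DDX10, WDR12, RRS1, NOP58 and DDX21, with log2 fold changes from -0.57 to -0.24. In shG9a cells, 2 fell (BYSL and DDX18) where 2.98% of all accessions and 8.66% of the well counted ones fell. In shGLP cells, 7 fell (BYSL, DDX18, WDR43, RRP9, NCL, TSR1 and WDR3) where 1.34% of all and 4.19% of the well counted fell. In shHP1γ cells, 7 fell (BYSL, RRP9, WDR43, DDX18, UTP18, NCL and WDR3) where 1.09% and 3.32% did. In each of the 3 depleted lines 1 member fell without the replicate block. No member rose after dex in any line. With no filter on low counts NOP16, a low-count 60S factor, passed as higher in shG9a (0.96, adjusted p = 0.0394, against 0.98 and 0.108 with the filter, edgeR). Scaling moved the balance over all accessions, from 457 higher and 555 lower in shNS to 523 and 403 with TMM scaling, but it left 13 members lower and 0 higher. The median of all accessions moved from -0.03 to 0.01 and that of the members from -0.23 to -0.19.

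The shG9a line gave the least negative value of the 4 lines for 21 of the 30 members that fell in the mean, and its members' median was -0.11, against -0.23 in shNS, -0.20 in shGLP and -0.19 in shHP1γ. The well counted accessions also had their least negative median in shG9a, at -0.02, against -0.06 in shNS, -0.05 in shGLP and -0.04 in shHP1γ. The share of all accessions with their least negative value in shG9a was not computed. The members' shG9a median moved with single libraries: it was -0.18 without ethanol replicate 2, close to the shGLP and shHP1γ values, -0.05 without ethanol replicate 1 and -0.09 without dex replicate 2. The count of called members was 2 in each of these 3 fits. The difference itself was tested as the interaction of dex with each shRNA, that is, the dex effect in the depleted line minus that in shNS. For shG9a, 0 of 44 members passed, where 0.0885% of all accessions did in either direction, and DESeq2 called 0. An unadjusted p under 0.05 was reached by 9 members, by 686 of 10167 tested accessions and by 255 of the 2528 well counted ones. The members with the smallest p values were WDR43 (0.23, 95% interval 0.07 to 0.39, adjusted p = 0.634, edgeR), NOP58 (0.31, 0.09 to 0.52, adjusted p = 0.634, edgeR) and GNL3, which had 1 to 15 counts per library. Without shG9a dex replicate 2 the interaction was 0.17 for WDR43 and 0.16 for NOP58 (adjusted p = 0.954 and 0.997, edgeR). For shGLP, 0 passed, 1 had an unadjusted p under 0.05 and DESeq2 called 0, beside 0.118% of all accessions. For shHP1γ the 3 counts were 0, 0 and 0, beside 0.0197%. Both percentages are of accessions that passed the adjusted limit. An unadjusted p under 0.05 was reached by 395 of 10167 tested accessions for shGLP and by 387 for shHP1γ. The interval for BYSL, from -0.01 to 0.29 for both shG9a and shGLP, shows how large a difference these libraries could have missed.

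Depletion was next compared in dex-treated cells, the comparison on which the study based its lists of dependent genes. All of these comparisons use the same shNS dex libraries, which also enter the dex effect in shNS, so that a low shNS dex library moves all of them. With shG9a, 10 of 44 members were higher than in shNS and 0 lower, where 4.38% of all tested accessions were higher, and the members' median was 0.14. Of the members with a sole accession, 8 of 26 were higher, beside 8.11% of the well counted accessions. The well counted among them were RRP9 (0.36, SE 0.07, adjusted p = 0.00297, edgeR), WDR43 (0.27), BYSL (0.25), NOP58 (0.30), NCL (0.25), FBL (0.21), WDR12 (0.25) and UTP18 (0.18). RRP9 stood at 130, 166 and 158 CPM in shG9a dex and at 108, 121 and 124 CPM in shNS dex, with no overlap. The other 2 were GNL3, with 12, 14 and 11 counts against 5, 1 and 5, and NOP16, with 26, 44 and 29 counts against 12, 20 and 10. Here the library that stood apart mattered. NOP58 had 680 CPM in shG9a dex replicate 2 and 471 and 514 CPM in the others, against 411, 467 and 470 CPM in shNS dex. Without that library, 3 members remained past the limit: BYSL (0.27, adjusted p = 0.00629, edgeR), RRP9 (0.31, adjusted p = 0.0208, edgeR) and WDR43 (0.21, adjusted p = 0.0293, edgeR). Of the calls lost, FBL kept a value of 0.21 (adjusted p = 0.0609, edgeR) and UTP18 had 0.16, whereas NOP58 was at 0.15, WDR12 at 0.16 and NCL at 0.17. The low-count GNL3 and NOP16 had 1.51 and 1.01 without it. The summed B-lineage markers, nearly all of it RAG1 and VPREB3, also differed, at 2270 to 2450 CPM in shG9a dex and 1740 to 2050 CPM in shNS dex, and their part in the result was not tested. Leaving out shNS dex replicate 2 also gave 3 members, shNS dex replicate 3 gave 4, and shNS dex replicate 1 gave 5. Without the replicate block, 0 passed.

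With shGLP, 2 members were higher in dex, BYSL (0.29, SE 0.05, adjusted p = 0.0013, edgeR) and RRP9 (0.26, SE 0.07, adjusted p = 0.0392, edgeR), and 0 were lower, where 3.31% of all accessions and 6.01% of the well counted ones were higher. With shHP1γ, BYSL alone was higher (0.22, SE 0.05, adjusted p = 0.0164, edgeR), where 2.55% and 3.84% were. Both counts are near the background. DDX18 had 0.15 in shGLP and 0.12 in shHP1γ and did not pass, and RRP9 had 0.19 in shHP1γ. BYSL was the member past the limit in all 3 depleted lines, and its 9 dex libraries there, from 131 to 155 CPM, lay above the 3 of shNS, from 110 to 126 CPM. RRP9 in shGLP rested on each library: it lost the limit when any 1 of the 6 was left out, with an adjusted p of up to 0.206 (edgeR). BYSL in shHP1γ lost it when any of 4 of the 6 was left out, with up to 0.0922 (edgeR). Neither count survived without the replicate block, where both were 0. The summed B-lineage markers were at 2980 to 3050 CPM in shGLP dex, and their part was not tested.

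In ethanol, 0 of 44 members passed the limit with any shRNA (edgeR, and 0 by DESeq2), where 3.73% of accessions were called with shG9a, 3.61% with shGLP and 2.91% with shHP1γ in either direction. An unadjusted p under 0.05 was reached by 4, 5 and 1 of the 44 members. Of all 10167 tested accessions, 1547, 1330 and 1469 reached it, and of the 2528 well counted ones 600, 468 and 552. BYSL was 0.11 higher in shG9a (adjusted p = 0.326, edgeR), 0.14 in shGLP (adjusted p = 0.183, edgeR) and 0.15 in shHP1γ (adjusted p = 0.153, edgeR), values that do not pass but have the sign of those in dex. In shG9a the members with the smallest p values were PNO1 (-0.89), FBL (0.13) and WDR74 (1.04), and PNO1 and WDR74 had few counts. In shGLP RRP9 had 0.17 and DDX18 0.10, and in shHP1γ NOP58 had -0.15 and RRP1B -0.12. The medians over the 44 members were 0.01, 0.07 and 0.01.

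**Figure D3:**
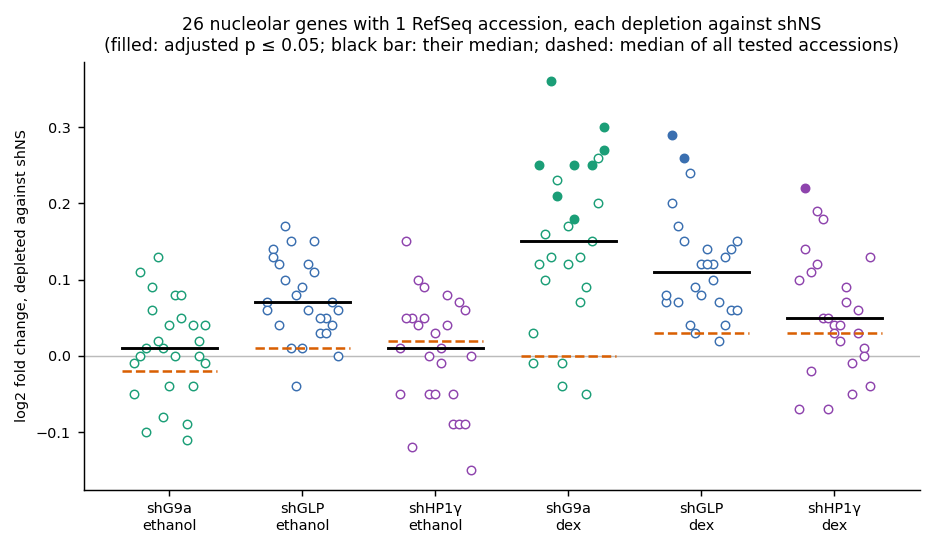
log2 fold change of each depleted line against shNS (y axis) in ethanol and in dex (x axis) for the 26 members with a sole accession, filled where the adjusted p was at most 0.05, with the median of the 26 (black bar) and of all tested accessions (dashed). In shG9a dex, 8 of the 26 are filled and the median is 0.15, against 0.01 in shG9a ethanol, where none is filled.

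Among other genes of the pathway, more factors of subunit assembly fell than rose after dex. These lists were drawn up with results of these data known, and their counts stand beside the 13.4% of all tested and 32.1% of well counted accessions that fell in the mean of the 4 lines. Of 26 further small subunit factors tested, 13 fell in the mean of the 4 lines and 0 rose, led by WDR36 (-0.21), DCAF13 (-0.20) and KRR1 (-0.18). Of 36 further large subunit factors, 16 fell, led by BRIX1 (-0.24) and GTPBP4 (-0.21), and 1 rose, NOP53 (0.12), which also has a role outside the nucleolus in restraining growth. Of 11 further RNA polymerase I genes, 2 fell, POLR1F (-0.24, adjusted p = 4.77e-07, edgeR) and POLR1C (-0.20), a share near the background. The medians of the 3 lists were -0.12, -0.14 and -0.16.

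Genes often described as MYC targets outside the nucleolus were lower as well, with 13 of 24 down, 0 up and a median of -0.27, where again 13.4% of all tested and 32.1% of well counted accessions fell. They included PPAT (-0.29), which starts purine synthesis, SRM (-0.28), which makes spermidine, NAMPT (-0.22), the amino acid transporter SLC7A5 (-0.34) and the mitochondrial chaperonin HSPE1 (-0.39). The list of MYC network genes, which holds partners of MAX and MLX and MYC-binding proteins, did not move one way. Of 10 tested, 3 rose and 3 fell: MXD4 (0.63, SE 0.06, adjusted p = 2.06e-08, edgeR), MLXIP (0.29, SE 0.03, adjusted p = 4.34e-08, edgeR) and MXD3 (0.18) were higher, and MNT (-0.20), MXI1 (-0.48) and MYCBP2 (-0.13) lower. MXD4 and MXD3 belong to the MAX dimerization proteins that compete with MYC for MAX and repress E-box genes, as do MNT and MXI1, which moved the other way in the mean of the lines. MXI1 rests on a mean of 64.38 counts, from 1 of its 3 accessions. Its value was -1.02 in shNS, whereas no tested gene of the list was below -0.17 in shHP1γ. With shG9a in dex, 3 of the 26 small subunit and 6 of the 36 large subunit factors were higher than in shNS and 0 lower, where 4.38% of all tested and 8.11% of well counted accessions were higher. With shGLP 2 and 1 were, where 3.31% and 6.01% were, so that these counts are near the background. The counts for shG9a were not repeated without shG9a dex replicate 2 or without the replicate block.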

How the data were processed

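RNA-seq of 24 Nalm6 libraries was analysed, 3 biological replicates in each of 8 groups taken from the sample labels. According to the study's methods, the authors trimmed paired-end reads, mapped them with HISAT2 to hg19 (GRCh37) and counted them on RefSeq with GenomicAlignments. The counting mode, strand handling and RefSeq release are not given in the sources used here. The deposited table is named for CPM but holds whole numbers with unequal library totals, and was used as raw counts per accession. A second deposited table was used only to pair accessions with gene symbols. Its Entrez identifiers (unit other, an identifier) were not used. Its log2 fold changes and FDR values are the authors' own comparisons and were not used either. Accessions were also named from RefSeq (GRCh38.p14), which gave symbols to 63568 of the 64519, against 9872 in the deposited table.

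Counts were tested with edgeR 4.0.16 in R 4.3.3 in a single model of all 24 libraries: upper quartile scaling, more than 1 CPM in at least 2 libraries, the replicate number as a factor in place of the study's RUV step, the quasi-likelihood F test and Benjamini-Hochberg adjustment over 10167 accessions, with a limit of 0.05. The mean effect of dex is the average over the 4 lines, and an interaction is the dex effect in a depleted line minus that in shNS. CPM values are counts scaled to library size with the same factors. The alternatives were TMM scaling, DESeq2 1.42.0, limma-trend (limma 3.58.1), other filters, counts summed per gene, fits of only the groups compared, no replicate block and leaving out replicates. Leaving out single libraries and counting members with a sole accession were added after the data were seen. The scripts were tested on simulated data. With 3 libraries against 3, an exact permutation test of 1 gene cannot give a p below 0.1, so p values come from the model across all accessions.

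By the labels, replicates were made on different days. Over pairs of groups, same-numbered libraries deviated together, with correlations across accessions of 0.005 to 0.588 (median 0.169). Replicates of a group differed beyond sampling noise, with chi-squared per degree of freedom from 3.41 to 39.8, so none was a duplicate. Statistics are given for up to 10 members per comparison with the smallest adjusted p and 1 direction in all 3 replicates, or for the 3 with the smallest p where fewer than 3 passed. Members and gene lists were chosen with earlier results of these data known. Gene positions are from GENCODE on GRCh37, and promoter windows from RefSeq on GRCh38.p14. One marker gene of the B-lineage list is not reported here.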

Additional observations from a re-analysis of the deposited data

How the results depend on the processing

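Of the alternatives tried, none reversed the sign of a called value: among the single-member values, 1263 kept their side of the limit, 207 no longer passed it and 6 newly did. The 1263 include values from counting only members with a sole accession, which reused the main fit, so that they could not change. The counts of members called moved more. For dex against ethanol in the mean of the 4 lines (30), it was 15 without the replicate block, 10 to 28 when a replicate was left out and 26 to 31 when a single library was. In shNS (13) it was 2 without the replicate block, 28 with only the groups compared, 3 to 13 without a replicate and 9 to 13 without a library. In shG9a (2) it was 4 with no filter on low counts, 3 lower and 1 higher, 1 without the replicate block, 1 with only the groups compared, and 1 to 4 without a replicate or library. In shGLP (7) these were 4, 1 and 18, and 1 to 8. In shHP1γ (7) they were 3, 1 and 20, and 1 to 9. For shG9a in dex (10), the count was 6 with no filter, 0 without the replicate block, 0 with only the groups compared, and 0 to 12 without a replicate or library. For shGLP in dex (2) it was 1 with TMM scaling or DESeq2, 0 with no filter or without the replicate block, 8 with only the groups compared, and 0 to 4 without a replicate or library. For shHP1γ in dex (1) it was 0 with no filter, without the replicate block or with only the groups compared, 2 with counts summed per gene, and 0 to 1 without a replicate or library. In ethanol, where the counts were 0, only the groups compared gave 1 for shG9a and 3 for shGLP, and a filter at a mean of 5 CPM gave 1 for shHP1γ. Fits of only the groups compared estimate the spread from 6 libraries, and fits without a replicate from 16. The other causes were not tested. The fit of only the groups compared does not exist for the mean of the 4 lines, which uses all groups.

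Depth limits the members with several accessions, whose median standard error in the mean of the lines was 0.12 on the log2 scale against 0.03 for those with a sole accession. MYC, at 0 to 11 counts per library, and the other 7 symbols not found gave no test.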
